A study of Mus musculus with 25 samples.

Results

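The hepatocyte identity transcription factors described here are 8 genes, Hnf4a, Foxa1, Foxa2, Foxa3, Cebpa, Cebpb, Onecut1 and Prox1, chosen by symbol and matched to their Ensembl gene identifiers. All 8 were found among the 48795 genes of the deposited tables, and all 8 were among the 15625 genes that passed the filter on low counts. RNA was sequenced from liver and tumor tissue of male C57BL/6J mice in 25 libraries, 1 library per sample. Livers of mice without diethylnitrosamine (DEN) came from animals fed a control diet (nonDEN L-CD, n = 3) or a western-like diet (nonDEN L-WD, n = 4) from weaning. Mice injected intraperitoneally with 25 mg/kg DEN, a carcinogen that hepatocytes activate, at 2 weeks of age gave liver on the control diet (DEN L-CD, n = 4), and on the western diet peritumoral liver (DEN PT-WD, n = 8) and tumors (DEN T-WD, n = 6). These are called untreated liver, WD liver, DEN liver, peritumoral liver and tumors in turn. Tissue was taken at 36 to 39 weeks of age. Every sample was a piece of whole tissue, so that a lower level of a hepatocyte gene may come from fewer hepatocytes or from less RNA per hepatocyte, and the data cannot tell these apart. The labels do not say which peritumoral and tumor samples shared a mouse, and the p-values therefore measure the spread between these samples.

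These factors bind together at the enhancers and promoters of hepatocyte genes and also at the genes of one another, which is why they are often described as a network. HNF4A is a nuclear receptor needed for most of the differentiated functions of the hepatocyte. FOXA1, FOXA2 and FOXA3 are forkhead factors that can bind closed chromatin, C/EBPα (Cebpa) and C/EBPβ (Cebpb) are leucine zipper factors of metabolism and of the acute phase response, ONECUT1 (HNF6) is a cut-homeodomain factor of hepatocytes and bile ducts, and PROX1 is a homeodomain factor of hepatocytes and lymphatic endothelium that also acts as a corepressor. Loss of such factors is a known feature of dedifferentiated liver tumors, and the comparisons ask how much of each transcript the liver held under diet and DEN, and in the tumors.

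The libraries held between 21530083 and 38074411 expected counts, with a median of 27610432. The 8 hepatocyte markers fixed for this work (albumin, transthyretin and others) were detected in every group, and their summed TPM (a level per transcript length, scaled to the depth of the library) lay between 50368 and 85797 in the liver and peritumoral libraries. In 5 of the 6 tumors it lay between 138784 and 160548, and in tumor replicate 5 it was 41953. Albumin (Alb) made up a large part of this sum, with mean TPM of 40114 in peritumoral liver and 80146 in tumors. Cps1, another of the 8 markers, went the other way, with mean normalized counts of 73192 and 42509. The sum therefore does not stand for all 8 markers alike. The 12 markers of pancreatic acinar cells summed to between 0.4 and 6236 TPM, and they exceeded 1000 TPM in 8 libraries spread over all 5 groups, so results were also computed without those 8. Bile duct markers summed to 37.5 to 43.5 TPM in untreated liver, 79.1 to 332 in peritumoral liver and 393 to 843 in tumors. Of these sums Spp1 (osteopontin), which other cells express too, made up most in every group, at 25.5 to 30.2 TPM, 60.9 to 317 and 372 to 817 in turn. The 2 serum amyloid genes Saa1 and Saa2 stood apart within untreated liver, where Saa1 had normalized counts of 3729, 50136 and 62567, against 951 to 17172 in the other 22 libraries. The part of these cell types and of the acute phase in the results was not tested.

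The promoters of 3 members are shown as a description, Onecut1 and the members whose windows held a match to the ONECUT motif given below. They are the bases before the most upstream RefSeq start of Onecut1, Foxa2 and Hnf4a on GRCm38.p6, read from the RefSeq promoter table, which held all 8 members. They lie at chr9:74861671-74861920 on the plus strand, chr2:148046970-148047219 on the minus strand and chr2:163506607-163506807 on the plus strand, and the Hnf4a stretch was ended where GENCODE M21 begins the gene. Capitals mark matches to 5 motifs searched on both strands, STAT (TTCNNNGAA), FOX (TGTTTAC), ONECUT (ATTGAT), HNF4 (CAAAGTCCA) and CEBP (TTGCNNAA).
Onecut1: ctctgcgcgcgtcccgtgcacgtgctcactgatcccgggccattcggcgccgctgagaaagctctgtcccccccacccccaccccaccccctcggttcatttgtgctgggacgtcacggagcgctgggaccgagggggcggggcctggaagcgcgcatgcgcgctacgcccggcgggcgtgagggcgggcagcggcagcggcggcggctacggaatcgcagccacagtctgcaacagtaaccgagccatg
Foxa2: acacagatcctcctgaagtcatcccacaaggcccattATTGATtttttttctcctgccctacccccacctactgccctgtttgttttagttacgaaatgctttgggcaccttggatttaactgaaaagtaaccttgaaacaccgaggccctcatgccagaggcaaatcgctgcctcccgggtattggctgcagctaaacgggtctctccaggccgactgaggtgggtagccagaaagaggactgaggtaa
Hnf4a: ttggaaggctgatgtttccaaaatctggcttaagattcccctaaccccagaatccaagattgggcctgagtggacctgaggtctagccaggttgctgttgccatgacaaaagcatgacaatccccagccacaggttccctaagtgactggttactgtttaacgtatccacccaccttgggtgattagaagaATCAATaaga
Among 32851 RefSeq promoter windows of 250 bases, 7.02% held the STAT letters, 3.17% the FOX letters, 6.72% the ONECUT letters, 0.384% the HNF4 letters and 9.56% the CEBP letters. The ONECUT letters occurred once in the Foxa2 window, from 213 to 208 bases before the start, and once in the Hnf4a window, from 59 to 54 bases before it. In the windows of the other 6 members the only match was to the FOX letters, 141 to 135 bases before the RefSeq start of Foxa1, at bases that GENCODE M21 places inside the gene. A match describes letters in a window and does not show binding.

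The 8 genes differed widely in level, and Hnf4a and Cebpa were the most abundant of them per transcript length. Over the 25 libraries, the median TPM was 159 for Hnf4a, 143 for Cebpa, 31.6 for Cebpb, 29.3 for Prox1, 27.3 for Foxa3, 16.7 for Onecut1, 10.4 for Foxa2 and 5.85 for Foxa1. The genes also differed in how tightly each group held its level. Within groups the coefficient of variation of the normalized count (expected count scaled to TMM library size) was 3.85% to 17.6% for Hnf4a, 8.28% to 13.7% for Cebpa and 6.92% to 21.3% for Cebpb, against 52.8% to 79.2% for Onecut1. The plot of normalized counts by library shows this spread.

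**Figure D1:**
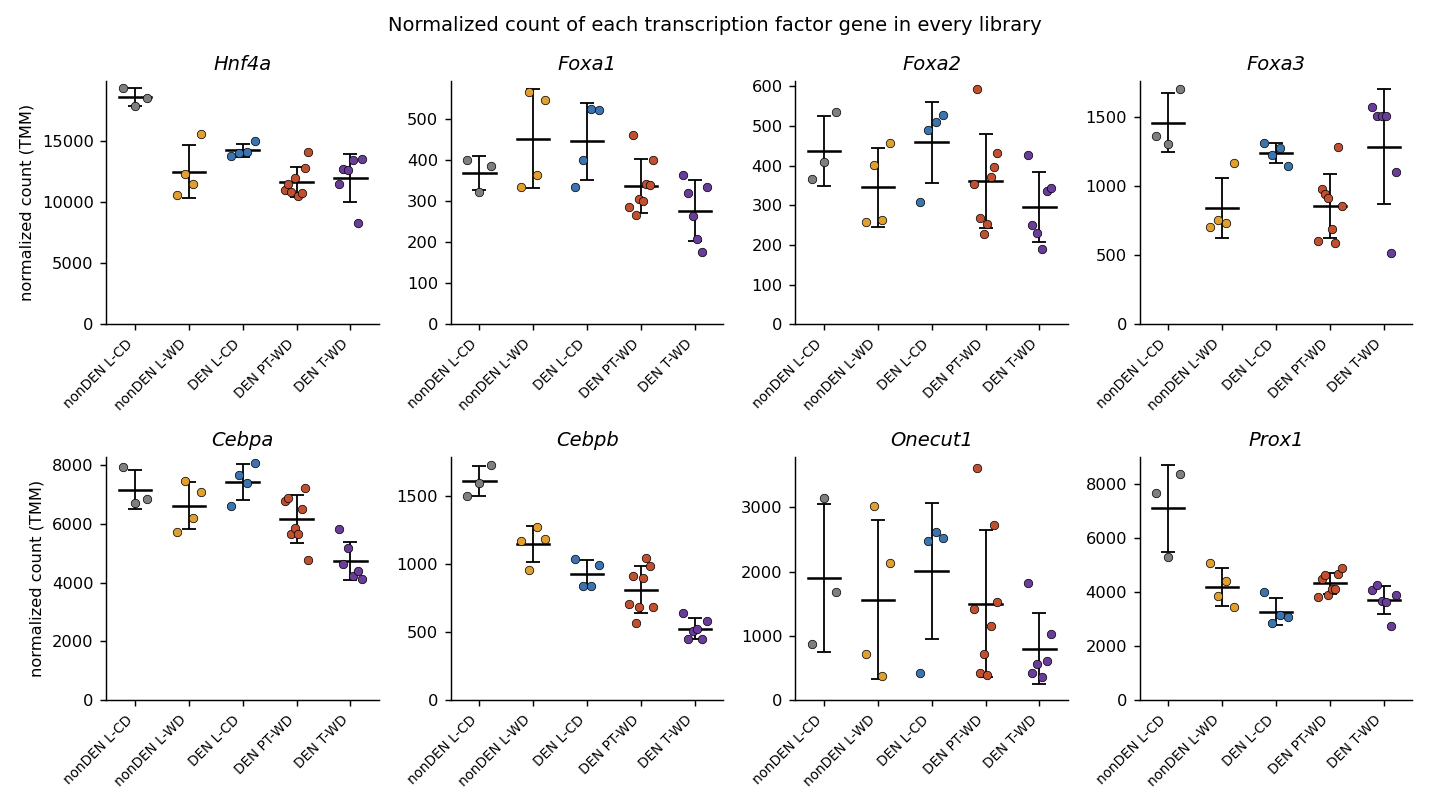
Normalized count (expected count scaled to TMM library size, y axes from 0) of the 8 genes in the 25 libraries of 5 groups (x axes). Points are libraries, horizontal lines are group means and error bars are SDs. Cebpb is highest in nonDEN L-CD (mean 1606) and lowest in DEN T-WD (mean 525), and Onecut1 spreads from 356 to 1817 within DEN T-WD.

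A gene passed when edgeR's quasi-likelihood test gave an adjusted p of at most 0.05 (Benjamini-Hochberg over 15625 genes), and a log2 fold change is that of normalized counts. The alternative settings counted for single genes are other scalings, filters, tests and sets of libraries. The study's minimum fold, a log2 fold change of 1 in either direction, is not among them, and any smaller change given here falls short of it. With the western diet and no DEN, 4 of the 8 transcripts fell, and 2 to 4 did when 1 library was left out. Hnf4a, Foxa3, Cebpb and Prox1 fell in WD liver against untreated liver, none of the 8 rose, and among all genes 12% were lower and 11.2% higher. With DEN on the control diet, Cebpb and Prox1 fell (2 of 8), beside 12.2% of all genes lower and 9.12% higher. Peritumoral liver, which had both DEN and the western diet, was compared with each of the liver groups. Against untreated liver, 4 members fell (Hnf4a, Foxa3, Cebpb and Prox1), where 21.9% of all genes were lower and 23.5% higher. Against WD liver, Cebpb alone fell, with 4.87% of all genes lower and 7.5% higher. Against DEN liver, Prox1 alone passed and rose, with 6.8% of all genes higher and 3.76% lower. Higher and lower together, the counts for DEN on the control diet and for peritumoral liver were near the share over all genes. The 2 single factors, DEN liver and WD liver, gave 0 members past the threshold between them by edgeR and 0 by DESeq2. By edgeR only 0.499% of all genes were higher and 0.218% lower. At an unadjusted p below 0.05 by edgeR there were 2 of 8 members, beside 2104 of all 15625 genes.

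Tumors differed from peritumoral liver in 3 of the 8 genes. Cebpa and Cebpb fell and Foxa3 rose in tumors against peritumoral liver, where 18.1% of all genes were lower and 19.5% higher. Against WD liver, Cebpa, Cebpb and Foxa1 fell and Foxa3 rose, beside 23.1% of all genes lower and 25.9% higher. Against DEN liver, Cebpa, Cebpb, Foxa1 and Foxa2 fell, beside 21.5% of all genes lower and 25.4% higher. Against untreated liver, Cebpa, Cebpb, Hnf4a and Prox1 fell, beside 26.2% of all genes lower and 27.8% higher. In each of these comparisons the members that passed, higher and lower together, were near the share over all genes. The comparisons share their control or tumor libraries and are not independent of each other. The median log2 fold change of the 8 genes in tumors against peritumoral liver was -0.29, beside 0.01 over all genes tested.

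**Figure D2:**
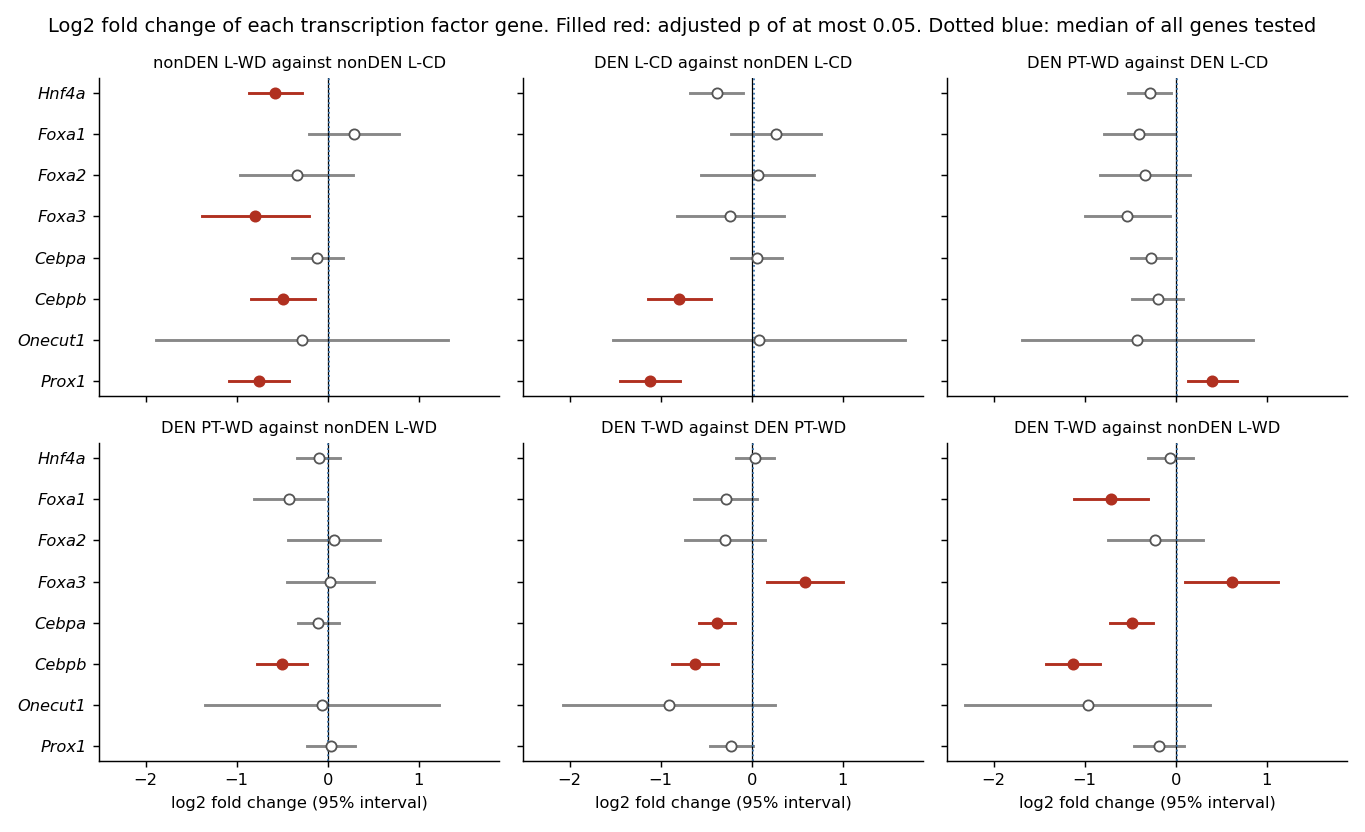
Log2 fold change (x axis) of the 8 genes (y axis) in 6 comparisons, with 95% intervals as horizontal lines. Filled red points have an adjusted p of at most 0.05, open points do not, and the dotted line is the median of all genes tested. Cebpb lies left of 0 in every panel and passes in 5 of the 6, Foxa3 passes to the right in both tumor panels, and the intervals of Onecut1 are the widest.

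The scale of the values bears on the tumor and peritumoral comparisons. On log2(TPM + 1), the median of all genes tested was 0.20 to 0.31 higher than on normalized counts in peritumoral liver and tumors against untreated liver, 0.21 to 0.29 higher against DEN liver and 0.16 to 0.24 higher against WD liver, and 0.085 higher for tumor against peritumoral liver. Among all genes, limma on log2(TPM + 1) called 4222 higher and 1394 lower in tumors against peritumoral liver, where edgeR on counts called 3050 and 2834, and 8730 higher and 792 lower in tumors against DEN liver, where edgeR called 3963 and 3361. For peritumoral liver against DEN liver the split was 6014 and 94 by TPM and 1063 and 587 by counts, and for the western diet without DEN it was 1463 and 601 by TPM and 1750 and 1876 by counts. Levels by TPM are therefore given relative to that median where they are set beside normalized counts. No member that passed on normalized counts had the opposite sign by TPM, while some that had not passed did. Of these Hnf4a alone passed by TPM, in tumors against WD liver, at -0.06 on normalized counts and 0.31 by TPM (limma, adjusted p = 0.0119), which was 0.05 above the TPM median of all genes.

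Hnf4a, the nuclear receptor, was highest in untreated livers on the control diet and did not pass the test between tumors and peritumoral liver. Its normalized counts were 19397, 17913 and 18602 in untreated liver, 10573, 12353, 11527 and 15633 in WD liver, and 13779, 14085, 14152 and 15056 in DEN liver. All 8 libraries of these last groups lay below the 3 untreated libraries on the control diet. Hnf4a fell by 0.57 on the log2 scale with the western diet (SE 0.14, adjusted p = 0.00529), and with DEN on the control diet its log2 fold change was -0.39 (SE 0.14, adjusted p = 0.0524), which did not pass. That change passed by DESeq2 (-0.38, adjusted p = 0.0323) and with only the groups compared (edgeR, -0.39, adjusted p = 0.00836), and in none of the other 13 alternative settings (adjusted p from 0.0524 to 0.181). Peritumoral libraries ranged from 10517 to 14134 with a median of 11299, and tumors from 8277 to 13544 with a median of 12709. These ranges overlap, and the difference of tumor from peritumoral liver had an interval of -0.17 to 0.25 around a log2 fold change of 0.04 (adjusted p = 0.791). The decrease of Hnf4a against untreated liver passed in peritumoral liver (-0.67, SE 0.12, adjusted p = 0.000131) and in tumors (-0.63, SE 0.13, adjusted p = 0.000254), but by TPM the value in tumors did not pass (-0.13, limma, adjusted p = 0.33) and was -0.45 relative to the TPM median of all genes. In the order untreated liver, DEN liver, WD liver, tumors and peritumoral liver, no neighbours differed past the threshold. Peritumoral liver was at -0.29 against DEN liver (edgeR, adjusted p = 0.0995), which passed in 2 of 20 alternative settings. These were only the groups compared (-0.29, adjusted p = 0.0394) and the replicate number as a block (-0.33, adjusted p = 0.0396).

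Among the FOXA genes, Foxa3 was the most abundant in every group and the only one that rose in tumors. Foxa3 had normalized counts of 1364, 1303 and 1699 in untreated liver, of 703, 753, 735 and 1163 in WD liver and of 1309, 1222, 1275 and 1143 in DEN liver. All 4 WD livers lay below the 3 untreated livers, and only replicate 4 reached the DEN liver libraries. Foxa3 fell by 0.80 with the western diet (SE 0.28, adjusted p = 0.0445), and this passed in 5 of 15 alternative settings. It did not pass without untreated liver replicate 1, 2 or 3 or WD liver replicate 1, 2 or 3 (adjusted p from 0.0565 to 0.161), nor without the libraries with pancreatic RNA (-1.01, adjusted p = 0.0824).

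In tumors, 4 of the 6 libraries held Foxa3 in a narrow band. Its normalized counts were 1572, 1507, 1508, 1506, 515 and 1099 in tumor replicates 1 to 6, while the 8 peritumoral libraries ranged from 586 to 1283 with a median of 885. In all, 4 tumors lay above every peritumoral library and tumor replicate 5 lay below all of them. The rise over peritumoral liver was 0.58 on the log2 scale (SE 0.20, adjusted p = 0.0242), 0.55 by TPM relative to the median of all genes, and 0.75 without tumor replicate 5 (SE 0.16, adjusted p = 0.00055). Leaving out tumor replicate 1, 2, 3 or 4 in place of it gave adjusted p values from 0.0544 to 0.0599, and leaving out the libraries with pancreatic RNA gave 0.49 (adjusted p = 0.154). Against WD liver the rise was 0.62 (SE 0.24, adjusted p = 0.0407) and 0.78 without tumor replicate 5 (adjusted p = 0.00161). It did not pass without WD liver replicate 1, 2 or 3 or tumor replicate 1, 2, 3 or 4 (adjusted p from 0.0722 to 0.112), nor without the libraries with pancreatic RNA (0.83, adjusted p = 0.0699). Against DEN liver and untreated liver the tumors did not differ past the threshold (0.05, adjusted p = 0.873 and -0.18, adjusted p = 0.579). The comparison with DEN liver passed in 1 of 18 alternative settings, the replicate number as a block (edgeR, 0.28, adjusted p = 0.00766). Peritumoral liver had less Foxa3 than untreated liver (-0.76, SE 0.24, adjusted p = 0.0137), which did not pass without untreated liver replicate 3 (-0.64, adjusted p = 0.0842), without the libraries with pancreatic RNA (-0.68, adjusted p = 0.0946) or by TPM (limma, adjusted p = 0.134), where it was -0.67 relative to the median of all genes.

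Foxa1 and Foxa2 were low throughout and fell in the tumor comparisons in which they passed. Foxa1 ranged from 175 to 364 normalized counts in tumors (median 291), from 266 to 462 in peritumoral liver (median 321), and from 322 to 567 in the 11 other livers. These ranges overlap in every pair of groups. Foxa1 fell in tumors against WD liver (-0.71, SE 0.20, adjusted p = 0.00479) and against DEN liver (-0.69, SE 0.20, adjusted p = 0.0066), and neither passed by TPM (limma, adjusted p = 0.144 and 0.265), where the values were -0.56 and -0.55 relative to the median of all genes. The difference from peritumoral liver was -0.29 (SE 0.17, adjusted p = 0.194). Foxa2 had 191 to 426 normalized counts in tumors, 228 to 594 in peritumoral liver, 308 to 529 in DEN liver, 259 to 457 in WD liver and 366 to 536 in untreated liver, with overlap throughout. It passed in 1 of 10 comparisons, tumors against DEN liver (-0.63, SE 0.25, adjusted p = 0.0416), and there it passed in 7 of 18 alternative settings. It did not pass without DEN liver replicate 2, 3 or 4 or tumor replicate 2, 3 or 4 (adjusted p from 0.0762 to 0.111). Against untreated liver it passed only without tumor replicate 1 (-0.69, adjusted p = 0.037, against -0.56 and 0.0846 with all libraries).

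Cebpb passed in 8 of the 10 comparisons between groups, the most of any member, and fell in all 8. Cebpb had normalized counts of 1502, 1593 and 1723 in untreated liver, of 1169, 955, 1272 and 1181 in WD liver and of 1037, 835, 839 and 990 in DEN liver. Peritumoral liver ranged from 565 to 1046 with a median of 802, and tumors from 446 to 638 with a median of 515. No tumor reached any library of the 3 liver groups, while tumors and peritumoral liver overlapped. Tumors had 3.06-fold less Cebpb than untreated liver (log2 fold change -1.61, SE 0.15, adjusted p = 1.72e-08), 2.18-fold less than WD liver (-1.13, SE 0.14, adjusted p = 1.2e-06), 1.76-fold less than DEN liver (-0.82, SE 0.14, adjusted p = 6.83e-05) and 1.54-fold less than peritumoral liver (-0.63, SE 0.12, adjusted p = 0.000337). All 4 of these decreases passed in every alternative setting tried. Relative to the TPM median they were -1.43, -1.0, -0.69 and -0.56.

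Of the 4 decreases of Cebpb among the non-tumor groups, 2 passed in every alternative setting and 2 did not. DEN on the control diet gave -0.80 (SE 0.17, adjusted p = 0.00175) and peritumoral liver against untreated liver -0.99 (SE 0.14, adjusted p = 1.23e-05), and these are the 2 that passed throughout. The western diet without DEN gave -0.49 (SE 0.17, adjusted p = 0.0368), which passed in 7 of 15 settings and not without untreated liver replicate 2 or 3 or WD liver replicate 1 or 2 (adjusted p from 0.0631 to 0.125). Peritumoral liver against WD liver gave -0.50 (SE 0.13, adjusted p = 0.0181), which passed in 13 of 20 settings and not without WD liver replicate 1, 3 or 4 (adjusted p from 0.0504 to 0.0626). Between WD liver and DEN liver, and between DEN liver and peritumoral liver, Cebpb did not pass (adjusted p = 0.403 and 0.367). In GENCODE M21 an exon of Tmem189 on the opposite strand covers 312 of the 1504 exonic bases of Cebpb, whose span is chr2:167688915-167690418. Tmem189 had mean normalized counts of 871, 679, 497, 502 and 321 in untreated liver, WD liver, DEN liver, peritumoral liver and tumors, and its log2 fold change in tumors against peritumoral liver was -0.65 (SE 0.15, adjusted p = 0.00137). Whether the counting used strand is not given in the sources used here, so reads from the shared bases cannot be assigned with certainty.

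Cebpa, by contrast, passed only in the tumor comparisons. It had normalized counts of 7924, 6697 and 6855 in untreated liver, of 5737, 7473, 6182 and 7075 in WD liver and of 6620, 7658, 7372 and 8082 in DEN liver, with peritumoral libraries from 4773 to 7223 (median 6181). Tumors ranged from 4133 to 5818 with a median of 4517, below every library of untreated liver and DEN liver. The decrease against peritumoral liver was 1.30-fold (-0.38, SE 0.10, adjusted p = 0.00306), and it did not pass without the libraries with pancreatic RNA (-0.27, adjusted p = 0.108). By TPM it was -0.25 and did not pass (limma, adjusted p = 0.0666), where the median of all genes was 0.095. The decreases against WD liver (-0.48, SE 0.11, adjusted p = 0.00112), DEN liver (-0.65, SE 0.11, adjusted p = 6.48e-05) and untreated liver (-0.60, SE 0.12, adjusted p = 0.00027) did not pass by TPM, where their adjusted p values were 0.301, 0.138 and 0.331. Relative to the TPM median of all genes those 3 differences were -0.41, -0.54 and -0.48. Whether the change of Cebpa in tumors differed from its change with diet or DEN was not tested.

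Onecut1 was the most variable of the 8 genes and passed in none of the 10 comparisons by edgeR, where its unadjusted p ran from 0.0502 to 0.924. Its normalized counts were 869, 3146 and 1684 in untreated liver, 720, 3024, 372 and 2132 in WD liver, and 420.0, 2482, 2622 and 2522 in DEN liver. Peritumoral libraries ranged from 386 to 3619 with a median of 1291, and tumors from 356 to 1817 with a median of 587. The ranges of all 5 groups overlapped, and the highest library exceeded the lowest by up to 9.37-fold within a group. Tumors were at -0.91 on the log2 scale against peritumoral liver, with an interval of -2.07 to 0.26 (adjusted p = 0.215), so that neither a several-fold decrease nor no change lay outside it. The comparison with DEN liver (-1.33, adjusted p = 0.0945) passed without DEN liver replicate 1 (-1.67, adjusted p = 0.0427) or without tumor replicate 1 (-1.75, adjusted p = 0.0347), and that with untreated liver (-1.25, adjusted p = 0.132) passed without tumor replicate 1 (-1.67, adjusted p = 0.0489). Pancreas also expresses Onecut1, whose normalized counts were 720 to 3619 in the 8 libraries with over 1000 TPM of pancreatic acinar markers and 356 to 3146 in the others. The highest Onecut1 of all 25 libraries, 3619 in peritumoral replicate 2, stood beside 2389 TPM of these markers, and the next highest, 3146 in untreated liver replicate 2, beside 0.4 TPM. The part of pancreatic RNA in the level of Onecut1 was not tested. Gm20649, a long noncoding RNA of the same strand, shares 2171 of the 4113 exonic bases of Onecut1 in GENCODE M21, and was given 0 to 69.0 expected counts per library against 360 to 3530 for Onecut1.

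Prox1 had the largest decrease of the 8 genes with DEN on the control diet, and the only one whose interaction of DEN with diet passed. Its normalized counts were 7642, 5276 and 8342 in untreated liver, 5070.0, 3854, 4409 and 3453 in WD liver, and 3990.0, 2849.5, 3133 and 3063 in DEN liver. All 8 libraries with 1 of the 2 factors lay below the 3 untreated livers. Prox1 fell by 0.76 with the western diet (SE 0.16, adjusted p = 0.00163) and by 1.12 with DEN (SE 0.16, adjusted p = 4.19e-05), and both passed in every alternative setting. Peritumoral libraries ranged from 3793 to 4873 (median 4294) and tumors from 2725 to 4253 (median 3772). Peritumoral liver was lower than untreated liver (-0.72, SE 0.14, adjusted p = 0.000218) and higher than DEN liver (0.40, SE 0.13, adjusted p = 0.0473), with 2 of its 8 libraries below the highest of the 4 in DEN liver.

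The western diet thus went with a Prox1 difference of -0.76 in livers without DEN and of 0.40 between peritumoral and control-diet livers with DEN, and the difference of these (the interaction) was 1.16 (SE 0.20, adjusted p = 0.00159). It passed in all 27 alternative settings, with values between 1.03 and 1.33, and 4.65% of all genes had an interaction above 0 that passed and 3.74% one below 0. The 7 other members did not pass. Of 16 acute phase genes, 9 passed in this term, each above 0, with a median of 1.36 beside 0.03 for all genes, and their part in the Prox1 result was not tested. The western-diet tissue with DEN was peritumoral, so that the presence of a tumor nearby and the diet cannot be told apart in this term. The rise over DEN liver on its own passed in 7 of 20 settings. It did not pass without DEN liver replicate 2, 3 or 4 or peritumoral replicate 2, 3, 4, 5, 7 or 8 (adjusted p from 0.0522 to 0.142), or without the libraries with pancreatic RNA (0.42, adjusted p = 0.127). Tumors had less Prox1 than untreated liver (-0.94, SE 0.14, adjusted p = 1.07e-05) and did not differ past the threshold from peritumoral liver (-0.22, SE 0.11, adjusted p = 0.13). Against DEN liver the tumors were at 0.18 on normalized counts (adjusted p = 0.277) and at 0.60 by TPM (limma, adjusted p = 0.000479), which was 0.27 above the TPM median of all genes. Prox1 also marks lymphatic endothelium, whose 5 other markers summed to 23.8 to 26 TPM in untreated liver, 22.9 to 39.2 in WD liver, 26.2 to 29.7 in DEN liver, 37.0 to 51.2 in peritumoral liver and 31.9 to 61.3 in tumors. Their part in the result was not tested.

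The balance within the families was set out per transcript length. Foxa3 made up 68.4% ± 0.48 (SD, n = 3) of the summed FOXA TPM in untreated liver, 57.0% ± 5.4 (n = 4) in WD liver, 62.5% ± 6.2 (n = 4) in DEN liver, 59.4% ± 8.1 (n = 8) in peritumoral liver and 71.3% ± 10.4 (n = 6) in tumors. Foxa1 made up the least, from 10.1% ± 2.0 in tumors to 19.4% ± 2.6 in WD liver. The share of Foxa1 was 4.94 percentage points lower in tumors than in peritumoral liver (exact two-sided permutation p = 0.00266, adjusted over 40 tests p = 0.0808). The log2 ratio of Cebpb to Cebpa TPM was -1.54 ± 0.22 in untreated liver, -1.91 ± 0.32 in WD liver, -2.36 ± 0.24 in DEN liver, -2.29 ± 0.26 in peritumoral liver and -2.52 ± 0.21 in tumors. No tumor and no peritumoral library reached the 3 untreated livers in this ratio. Its difference of peritumoral liver from untreated liver was -0.75 (exact permutation p = 0.00606, adjusted p = 0.0808), and 0 of the 40 tests of balance passed after adjustment, with the smallest exact p that 3 against 4 libraries allow being 0.0286.

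**Figure D3:**
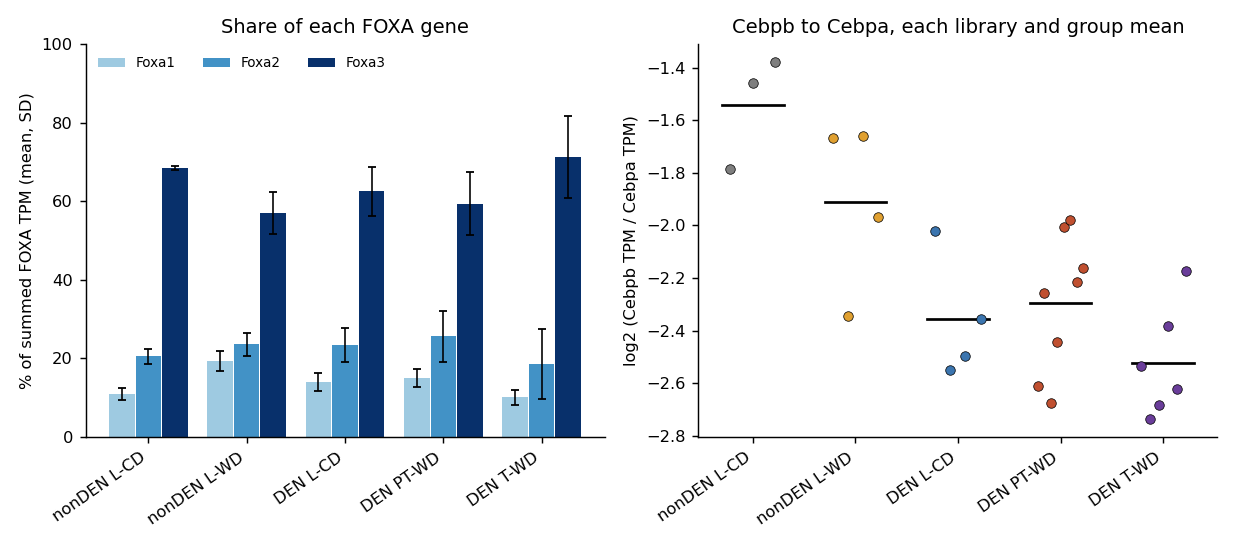
Left, the share (y axis, % of summed TPM of Foxa1, Foxa2 and Foxa3) of each FOXA gene by group, as means with SD. Right, log2 of the Cebpb to Cebpa TPM ratio of each library (points) with group means (lines). Foxa3 holds between 57.0% and 71.3% in every group, and the mean ratio runs from -1.54 in nonDEN L-CD to -2.52 in DEN T-WD.

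RSEM's gene length, a mean over the transcripts of a gene weighted by their abundance, gave a view of which transcripts were used. It was constant for Foxa1, Foxa3 and Cebpb, which have 1 transcript each in these tables, and was compared for the other 5 members. The length of Cebpa was 2264 ± 1.2 bases in untreated liver (n = 3), 2276 ± 9.7 in WD liver (n = 4), 2323 ± 21 in DEN liver (n = 4), 2324 ± 9.4 in peritumoral liver (n = 8) and 2321 ± 12.4 in tumors (n = 6). All 18 libraries of mice given DEN were above the 7 of mice without it, the lowest of them at 2303 and the highest of the others at 2288. The difference of peritumoral liver from WD liver was 47.8 bases (exact two-sided permutation p = 0.00202, adjusted over 50 tests p = 0.0758). The length of Prox1 was 7726 bases in peritumoral liver and 7609 in untreated liver (exact permutation p = 0.00606, adjusted p = 0.0758). None of the 50 tests passed after adjustment, and 3 libraries against 4 cannot give an exact p below 0.0286. Gm45091 shares 51 exonic bases with Cebpa on the opposite strand.

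The members were then compared with each other across libraries, on log2 CPM after the mean of each group had been taken off, in a comparison added after the data were seen. Onecut1 and Foxa2 moved together most closely, with r = 0.86 (permutation p = 1e-05, the smallest that 100000 permutations can give, adjusted over 28 pairs p = 0.00028) and rho = 0.80 (permutation p = 4e-05, adjusted p = 0.00112) over 25 libraries. Leaving out the 2 libraries farthest from the median of Foxa2 gave r = 0.87, and r was 0.89 within peritumoral liver (n = 8) and 0.91 within tumors (n = 6). Foxa1 went with Foxa2 (r = 0.68, adjusted p = 0.0119, rho = 0.75, adjusted p = 0.00364, r = 0.79 without 2 libraries) and with Onecut1 (r = 0.66, adjusted p = 0.0119, rho = 0.69, adjusted p = 0.00989, r = 0.68 without 2 libraries). Hnf4a went with Foxa3 (r = 0.74, adjusted p = 0.0465, rho = 0.65, adjusted p = 0.0337), but r was 0.47 without the 2 libraries farthest from the median of Hnf4a. These 4 of the 28 pairs passed by both measures. How often pairs of other genes would pass in the same way was not computed. The promoter windows of both Foxa2 and Hnf4a held the ONECUT letters, and Hnf4a had r = 0.25 with Onecut1 (adjusted p = 0.539) and rho = 0.28 (adjusted p = 0.411). All values come from the same libraries and share their normalization.

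**Figure D4:**
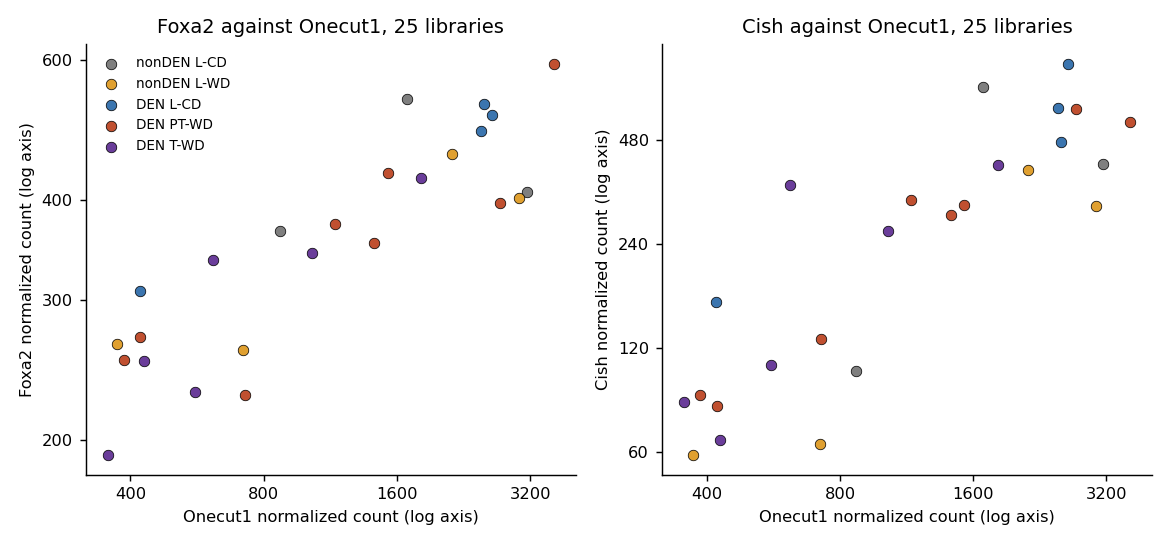
Normalized counts of Foxa2 (left) and Cish (right) against Onecut1 on log axes, 1 point per library, coloured by group. Points of all 5 groups lie along 1 band in both panels, with Onecut1 from 356 to 3619, Foxa2 from 191 to 594 and Cish from 58.7 to 800.

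The genes most like each member were listed by Pearson's r of log2 CPM over the 25 libraries, as a description, since they were chosen as the highest of about 11343 genes. Cish, a feedback inhibitor of cytokine and growth hormone signalling induced by STAT5, was the closest to both Onecut1 (r = 0.87) and Foxa2 (r = 0.88). Next for Onecut1 came Rgs3 (0.84), a regulator of G protein signalling, and Arid5b (0.81), an ARID domain regulator. For Foxa2 the next were Arid5b (0.87) and Rgs3 (0.87). Cish had normalized counts of 103, 408 and 686 in untreated liver and of 63.4, 310, 58.7 and 394 in WD liver, so that it spread within groups as Onecut1 did. Cebpb was closest to the hyaluronidase Hyal1 (0.96), the kinase Pim3 (0.96) and Ccnf (0.94), which encodes cyclin F. Mean normalized counts of Hyal1 were 1887, 1293, 998, 961 and 634 from untreated liver through WD liver, DEN liver and peritumoral liver to tumors, the same order of groups as Cebpb. Foxa3 was closest to Serpina1a (0.90), an α1-antitrypsin gene, to Lrig1 (0.87) and to Adgrf1 (0.87), and Serpina1a, which belongs to a family of near-identical copies, had its lowest count of all 25 libraries (39697) in tumor replicate 5 as Foxa3 did. Hnf4a was closest to Zfp189 (0.91), Dnajc3 (0.89), a chaperone of the endoplasmic reticulum, and Ormdl2 (0.89). Cebpa was closest to Pex26 (0.89), a peroxisomal import factor, Ndufaf4 (0.88), an assembly factor of respiratory complex I, and Zfp871 (0.88). Foxa1 was closest to Rap2a (0.82), Cyp4f13 (0.82) and Pgap1 (0.81), and Prox1 to Rreb1 (0.83), Arl15 (0.81) and Shb (0.80).

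Other regulators of the same network were read on normalized counts from 2 lists, 24 relatives and partners of the members and 29 other liver-enriched regulators. Of the 23 relatives tested, 3 rose and 5 fell with the western diet, where 11.2% of all genes rose and 12% fell, and 3 rose and 7 fell with DEN on the control diet, where 9.12% rose and 12.2% fell. The rises were thus near the share over all genes. Hhex, an early liver homeobox gene, rose in both (1.29, SE 0.28, adjusted p = 0.00197 with the diet and 1.49, SE 0.28, adjusted p = 0.000658 with DEN), and Cebpg, a dimer partner of the C/EBP factors, fell in both (-0.83, adjusted p = 0.00205 and -0.76, adjusted p = 0.004). In tumors against peritumoral liver 7 rose and 4 fell, beside 19.5% and 18.1% of all genes, with a median of -0.085 beside 0.01 for all genes. Ddit3, the stress-induced C/EBP relative CHOP, rose from 122 ± 22 to 309 ± 76 normalized counts (1.33, adjusted p = 4.52e-06), and Atf4, its upstream factor in that response, rose by 0.49 (adjusted p = 0.00143). Onecut2, the paralog of Onecut1, fell from 3071 ± 347 to 1506 ± 497 (-1.03, SE 0.14, adjusted p = 7.34e-06), Cebpe fell by 0.92 (adjusted p = 0.000159) and Cebpd by 0.62 (adjusted p = 0.0152).

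Among the 29 other liver-enriched regulators, losses outnumbered gains in tumors. Against peritumoral liver 2 rose and 13 fell, beside 19.5% and 18.1% of all genes, with a median of -0.28 beside 0.01 for all genes. Against WD liver 2 rose and 17 fell, beside 25.9% and 23.1%. Nr1i3, the xenobiotic receptor CAR, fell from 3285 ± 697 to 1192 ± 359 normalized counts (-1.46, SE 0.22, adjusted p = 2.42e-05), Tbx3, a pericentral zone regulator, from 760 ± 99 to 327 ± 93 (-1.22, adjusted p = 2.57e-05), and Nr1h4, the bile acid receptor FXR, by 0.66 (adjusted p = 1.41e-05). Xbp1, the factor of the unfolded protein response, rose by 0.67 (adjusted p = 0.000705) and Rora by 0.40 (adjusted p = 0.0208). With the western diet 4 rose and 3 fell, near the 11.2% and 12% of all genes. Among them Srebf1, the activator of lipid synthesis, rose by 2.43 (adjusted p = 0.000278) and Xbp1 fell by 0.97 (adjusted p = 0.00157). With DEN on the control diet 3 rose and 8 fell, beside 9.12% and 12.2% of all genes, and Srebf1 (2.03, adjusted p = 0.0012) and Xbp1 (-0.89, adjusted p = 0.00306) moved in the same directions, the 2 comparisons sharing their untreated liver libraries.

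HNF4A, FOXA and C/EBP proteins are known to bind genes of hepatocyte products, but the list of products used here was not taken from binding data. These textbook hepatocyte products (40 genes, Tf being listed as Trf) fell more often than they rose in tumors. With the western diet 4 rose and 1 fell (11.2% and 12% of all genes), and with DEN 2 of the 40 passed, both of them higher (9.12% of all genes). In peritumoral liver against untreated liver 3 rose and 9 fell, beside 23.5% and 21.9% of all genes. Cyp7a1, the rate-limiting enzyme of bile acid synthesis, rose in both, from 591 ± 328 to 8622 ± 3001 normalized counts with the diet (3.87, SE 0.46, adjusted p = 6.65e-06) and to 7216 ± 1623 with DEN (3.61, SE 0.45, adjusted p = 1.25e-05). In tumors against peritumoral liver 8 rose and 20 fell, beside 19.5% and 18.1% of all genes, with a median of -0.38 beside 0.01 for all genes. Cyp2e1, which oxidizes ethanol and activates DEN, fell from 165439 ± 29624 to 51993 ± 14999 (-1.67, SE 0.17, adjusted p = 1.8e-07), and Cyp8b1 (-1.62, adjusted p = 3.5e-06) and Cyp7a1 (-1.68, adjusted p = 0.000102), both of bile acid synthesis, fell with it. Igfbp1, a secreted binder of insulin-like growth factors, rose by 2.24 (adjusted p = 0.000415), and the apolipoprotein genes Apoc2 and Apom rose by 1.5 (adjusted p = 3.14e-06) and 1.42 (adjusted p = 0.000576). Albumin, the leading hepatocyte product, rose by 0.89 (SE 0.24, adjusted p = 0.00622), with tumor replicate 5 lowest of all 25 libraries at 637049.5 normalized counts.

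Acute phase genes, many of them targets of C/EBPβ, fell more often than they rose against untreated liver, where 2 of the 3 libraries stood apart in Saa1 and Saa2. Of the 16 on the list, 11 passed with the western diet, each of them lower (median -1.24 beside 0.01 for all genes), and 11 passed with DEN, each of them lower (median -1.0 beside 0.03), while 12% and 12.2% of all genes were lower. Against the same livers 2 rose and 9 fell in peritumoral liver, beside 23.5% and 21.9% of all genes, and 2 rose and 10 fell in tumors, beside 27.8% and 26.2%. Il1rn, an antagonist of interleukin-1, rose in both (1.32, SE 0.43, adjusted p = 0.0167 and 2.9, SE 0.48, adjusted p = 2.78e-05). Saa2 fell by 4.92 with the diet (SE 1.00, adjusted p = 0.0013) and by 4.29 with DEN (SE 0.97, adjusted p = 0.00317). Its counts in untreated liver were 984, 37056 and 48478, so that replicate 1 lay within the range of the other groups, 396 to 6797. In replicate 1, Cebpb was at 1502, Prox1 at 7642 and Hnf4a at 19397, above every library of WD liver and DEN liver. Replicate 1 also had 1127 TPM of pancreatic acinar markers, and the part of the acute phase in these levels was not tested. In tumors against peritumoral liver 3 acute phase genes rose, among them Lcn2 (2.15, adjusted p = 0.00801), and 2 fell, near the 19.5% and 18.1% of all genes.

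**Figure D5:**
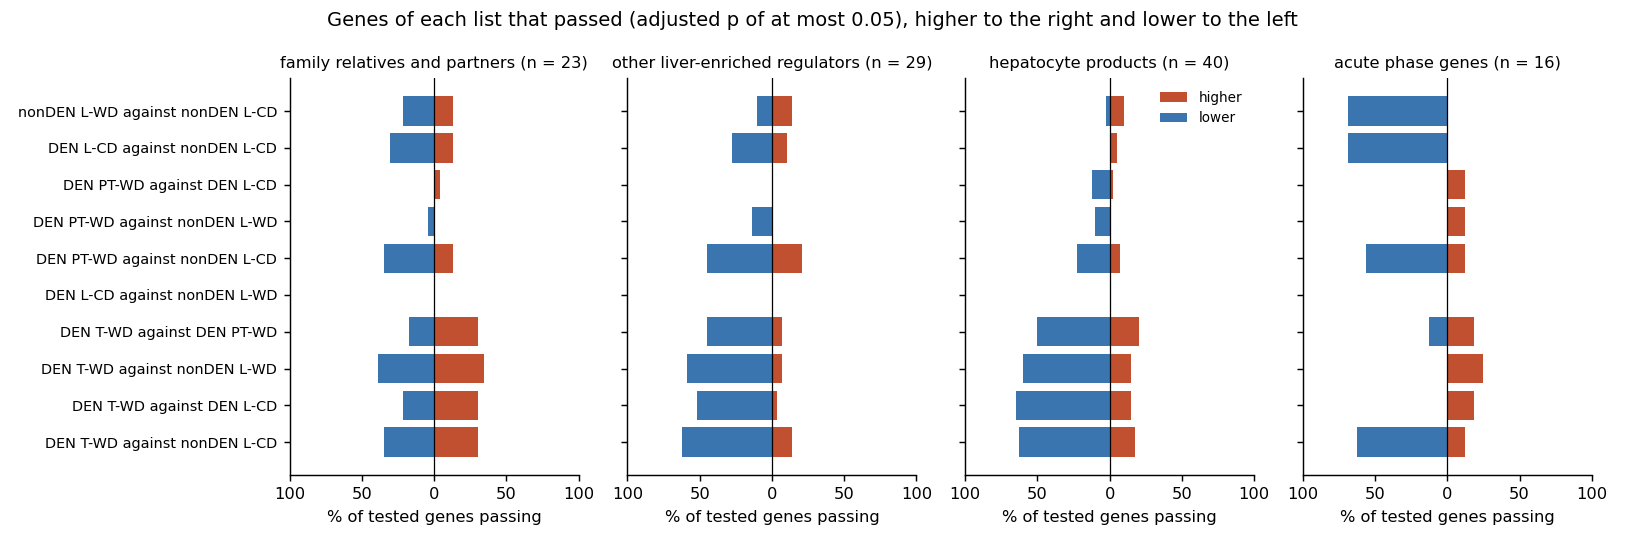
Percent of the tested genes of each list (panels) that passed higher (to the right) or lower (to the left) in each of the 10 comparisons between groups (rows), at an adjusted p of at most 0.05. Decreases prevail among the 40 hepatocyte products and the 29 regulators in the 4 tumor rows, and among the 16 acute phase genes in the rows against nonDEN L-CD.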

How the data were processed

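RNA from 25 tissue samples was sequenced as single-end mRNA libraries. Per the labels and the study's methods, the authors checked reads with FastQC, aligned them to GRCm38 with STAR and quantified genes with RSEM. The versions of STAR and RSEM, the annotation and the use of strand are not given in the sources used here. The deposited values were expected counts (estimated reads per gene, not normalized), TPM and FPKM (scaled by the authors to effective length and depth) and transcript lengths in bases. After rounding, the deposited expected counts entered edgeR 4.0.16 (R 4.3.3, TMM, filterByExpr with a minimum count of 10, quasi-likelihood test, 1 fit of 5 groups with 20 residual degrees of freedom). P-values were adjusted by Benjamini-Hochberg over 15625 genes, and adjusted p of at most 0.05 was the threshold. Replicates differed by more than sampling noise in every pair, so all 25 libraries were kept. The fit was tested on simulated data.

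Balance within families (TPM) and transcript lengths were compared with exact two-sided permutation tests. Member pairs were compared with 100000 permutations within groups. Alternatives were DESeq2 1.42.0 (Wald test, and its size factors in edgeR), no filter on low counts, only the groups compared, the replicate number as a block, limma 3.58.1 on log2(TPM + 1) and log2(TPM + 0.1), the study's minimum absolute log2 fold change of 1, and each library left out. For the family balance, FPKM and counts per effective length were used as well. The correlations of member pairs, and the fit without the 8 libraries in which 12 pancreatic acinar markers exceeded 1000 TPM, were added after seeing the data.

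The members and gene lists were chosen with earlier results of these data known. Named were all 8 members, up to 3 risen and 3 fallen genes per list with the largest changes and 100 or more normalized counts in whichever group was higher, the 3 genes most correlated with each member, overlapping genes, and markers standing beside a result.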

Additional observations from a re-analysis of the deposited data

Results flagged for a closer look

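Within groups of 4 to 10 samples, 6 of the 32 group and gene combinations tested held a library far from the others by Dixon's ratio of gap to range. Chance alone flags about 1 in 20 such groups. Tumor replicate 5 was far below the other tumors by this measure for 3 genes. Its Hnf4a normalized count was 8277 against 11475 to 13544 in the other tumors (ratio 0.663), its Foxa3 was 515 against 1099 to 1572 (0.679), and its Prox1 was 2725 against 3620 to 4253 (0.638), with a critical value of 0.625. The same tumor had 41953 TPM of hepatocyte markers, against 138784 to 160548 in the other 5. DEN L-CD replicate 1 was the lowest of its group for Onecut1, at 420.0 against 2482 to 2622 (ratio 0.97), and for Foxa2, at 308 against 489 to 529 (ratio 0.857), with a critical value of 0.829. Foxa3 was highest in nonDEN L-WD replicate 4, at 1163 against 703 to 753 (ratio 0.864).

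The Prox1 difference between western-diet and control-diet tissue was not the same with and without DEN, by a test of the difference itself. The western-diet tissue with DEN was peritumoral, so that diet and a tumor nearby cannot be told apart. The interaction was 1.16 on the log2 scale (edgeR, adjusted p = 0.00159).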

How the results depend on the processing

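Of 1656 values of the members under the alternatives, 1557 kept their side of the threshold, 86 lost it, 11 gained it and 2 reversed. Hnf4a in tumors against WD liver reversed from -0.06 to 0.311 and 0.313 on log2(TPM + 1) and log2(TPM + 0.1). In this comparison the median of all genes tested was 0.24 higher on log2(TPM + 1) than on normalized counts. The cause of the reversal was not tested. The number of members that passed moved as follows. Without a filter on low counts it was 2 for WD liver against untreated liver (4 in the report) and 0 for peritumoral liver against DEN liver (1). On either TPM scale it was 2 for WD liver against untreated liver, 0 for peritumoral liver against WD liver (1), and 2 for tumors against DEN liver (4) and against untreated liver (4). With DESeq2 size factors it was 0 for peritumoral liver against DEN liver, and with only the groups compared 2. By DESeq2, and with only the groups compared, it was 3 for DEN liver against untreated liver (2). Without the 8 libraries with pancreatic RNA, an alternative chosen after seeing the data, it was 2 for WD liver against untreated liver, 0 for peritumoral liver against DEN liver and against WD liver, and 1 for tumors against peritumoral liver (3). The study's minimum fold left 0 for WD liver against untreated liver, for peritumoral liver against all 3 liver groups, and for tumors against peritumoral liver and DEN liver, and left 1 for DEN liver against untreated liver (2) and for tumors against WD liver (4) and untreated liver. Leaving out 1 library gave 2 to 4 for WD liver against untreated liver, 2 for DEN liver against untreated liver, 0 to 1 for peritumoral liver against DEN liver and against WD liver, 3 to 4 against untreated liver, 0 for DEN liver against WD liver, 2 to 3 for tumors against peritumoral liver, 3 to 4 against WD liver, 3 to 5 against DEN liver, 4 to 6 against untreated liver, 1 for the interaction, and 0 for balance and for length. With the replicate number as a block, 0 members passed for peritumoral liver against WD liver, and of 88 values 5 lost and 2 gained the threshold. Those lost were Foxa1 in tumors against WD liver (-0.65, adjusted p = 0.0606) and DEN liver (-0.65, adjusted p = 0.0618), Foxa2 in tumors against DEN liver (-0.80, adjusted p = 0.071), and Cebpb (-0.70, adjusted p = 0.0776) and Prox1 (0.37, adjusted p = 0.114) in peritumoral liver against WD liver and DEN liver in turn. Those gained were Hnf4a in peritumoral liver (-0.33, adjusted p = 0.0396) and Foxa3 in tumors (0.28, adjusted p = 0.00766), both against DEN liver. Same-numbered samples correlated between -0.239 and 0.388 in their deviations from group means, so the numbers were not taken to pair samples. In DEN liver against untreated liver 3 of 3 samples correlated best with their own number. Whether more depth or more libraries would change a call was not tested.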
